A study of Mus musculus with 48 samples.

Results

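The naive pluripotency transcription factors of mouse embryonic stem (ES) cells were followed through every RNA-seq and ribosome profiling (Ribo-seq) group of a study of NRDE2, MTREX and CCDC174. The set held *Klf2*, *Klf4*, *Klf5*, *Tfcp2l1*, *Esrrb*, *Nanog*, *Tbx3*, *Prdm14*, *Zfp42* and *Dppa3*, chosen by name and found through their Ensembl identifiers. These were 10 of the 55335 genes in the deposited tables, and each of the 10 passed the filter on low values in every comparison. NRDE2 is a nuclear protein that binds the RNA helicase MTREX, a cofactor of the nuclear exosome, which degrades RNA in the nucleus, and CCDC174 is a protein with a role in splicing. The question put to these cells was how loss of each protein alters the transcripts that a cell makes and translates.

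All cells were ES cells of a hybrid 129-C57BL/6 background that carried a tamoxifen-inducible Cre (Cre-ERT2), and they were grown with LIF and the 2 inhibitors known as 2i, which hold the naive state. The *Nrde2* wild-type (WT) libraries came from the conditional *Nrde2* line without 4-hydroxytamoxifen, and *Nrde2*-KO cells had received 100 nM of it for 4 days. The *Mtrex* WT and *Mtrex*-KO libraries came likewise from a conditional *Mtrex* line, without or with 100 nM for 3 days. Each knockout thus differed from its WT in 4-hydroxytamoxifen as well as in the gene, and these cannot be told apart. *Nrde2*Δ*200* cells carried a deletion of the 200 N-terminal amino acids of NRDE2, and *Nrde2-D174R* cells the D174R substitution. *Ccdc174-dTAG* cells expressed CCDC174 fused to FKBP12F36V, a tag through which dTAG-13 directs a protein to degradation, and received 500 nM dTAG-13 for 24 h. Their WT control was the same fusion line without dTAG-13, so it was not an unedited line. A second *Nrde2* experiment and the *Ccdc174* experiment each had libraries with and without cycloheximide (CHX), an inhibitor of translation, at 0.1 mg/ml for 4 h. Ribo-seq compared *Nrde2* WT with *Nrde2*-KO. Edited lines were expanded from picked clones, and the number of clones behind a group is not given in the sources used here. Each of the 14 RNA-seq and 2 Ribo-seq groups had 2 libraries. The labels number them as replicates and do not say whether they came from separate cultures, so p-values measure the spread between these libraries, which may be technical.

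Naive pluripotency is the state of the preimplantation epiblast. In culture it is held by a network of transcription factors that receive separate signals. LIF acts through STAT3 on *Klf4* and *Tfcp2l1*, inhibition of GSK3 relieves repression of *Esrrb* and *Tfcp2l1* by TCF7L1, and inhibition of MEK sustains *Klf2*, *Nanog* and *Prdm14*. KLF2, KLF4 and KLF5 are zinc finger factors of one family, ESRRB is an orphan nuclear receptor, NANOG is a homeodomain factor, TBX3 is a T-box factor, PRDM14 represses FGF signalling and de novo DNA methylation, ZFP42 (REX1) is a reporter of the naive state, and DPPA3 (STELLA) protects DNA methylation marks in the early embryo. The general factors *Pou5f1* and *Sox2* lie upstream of the network and are also expressed in the primed state.

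Reads in genes numbered 28683644 to 36272309 in the RNA-seq libraries and 3475051 to 5035940 in those of Ribo-seq. All 10 of the ES cell markers checked (*Pou5f1*, *Sox2*, *Utf1*, *Fgf4* and others) reached 1 normalized CPM in at least 1 library of *Nrde2* WT cells. *Nrde2* RNA was 40.5 and 41.6 normalized CPM in WT and 19.3 to 20.4 in *Nrde2*-KO, and its log2 fold change was -1.40 in the second experiment. With CHX it was 226 to 244 in WT and 250.3 to 259 in *Nrde2*-KO, so the RNA level does not check the label of the CHX-treated libraries. *Mtrex* RNA was 112 to 119 in WT and 41.6 to 46.4 in *Mtrex*-KO, whereas dTAG-13 acts on protein, so *Ccdc174* RNA checks nothing. Normalized CPM here are the deposited CPM (reads of a gene scaled to a fixed library total) divided by a factor per library that centres the genes. On the deposited scale the median gene lay at -0.38 (log2) in the *Mtrex*-KO comparison, at 0.20 to 0.24 in the CHX responses, at 0.15 in Ribo-seq, at -0.11 for *Nrde2-D174R* against *Nrde2*Δ*200* and at -0.42 for the *Mtrex* minus the *Nrde2* effect, whereas the centred medians lay between -0.01 and 0.03. Counts were made from uniquely mapped reads, so levels are uncertain where an exon has a near-identical copy elsewhere. A stretch of at least 100 bases with at least 95% identity was found in 57 other genes for *Nanog*, in 2 for *Dppa3* (*Dppa3-ps* and *Gm15620*), and in 1 each for *Zfp42* (*Zfp42-ps1*), *Tfcp2l1* (*Gm23497*) and *Tbx3* (its antisense partner *Tbx3os1*, kept apart by stranded counting).

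Among the members, *Nanog* and *Zfp42* had the most RNA per length of transcript. In the first *Nrde2* WT group the mean normalized CPM per kb of exon was 453 for *Nanog*, 269.5 for *Zfp42*, 176 for *Tfcp2l1*, 84.8 for *Klf4*, 78.1 for *Esrrb*, 64.1 for *Klf2*, 27.2 for *Klf5*, 21.1 for *Tbx3*, 20.2 for *Prdm14* and 14.2 for *Dppa3*. The 2 libraries of *Tbx3* and of *Prdm14* overlapped, and every other pair of neighbours in that order stood apart. Over the 14 RNA-seq groups *Nanog* and *Zfp42* kept ranks 1 and 2 between them. *Tfcp2l1* ranged from rank 3 to rank 7 and *Klf5* from rank 5 to rank 10. *Dppa3* and *Prdm14* ranged from rank 8 to rank 10, *Dppa3* being lowest in the first *Nrde2* WT group but not in any group of the second *Nrde2* experiment.

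**Figure D1:**
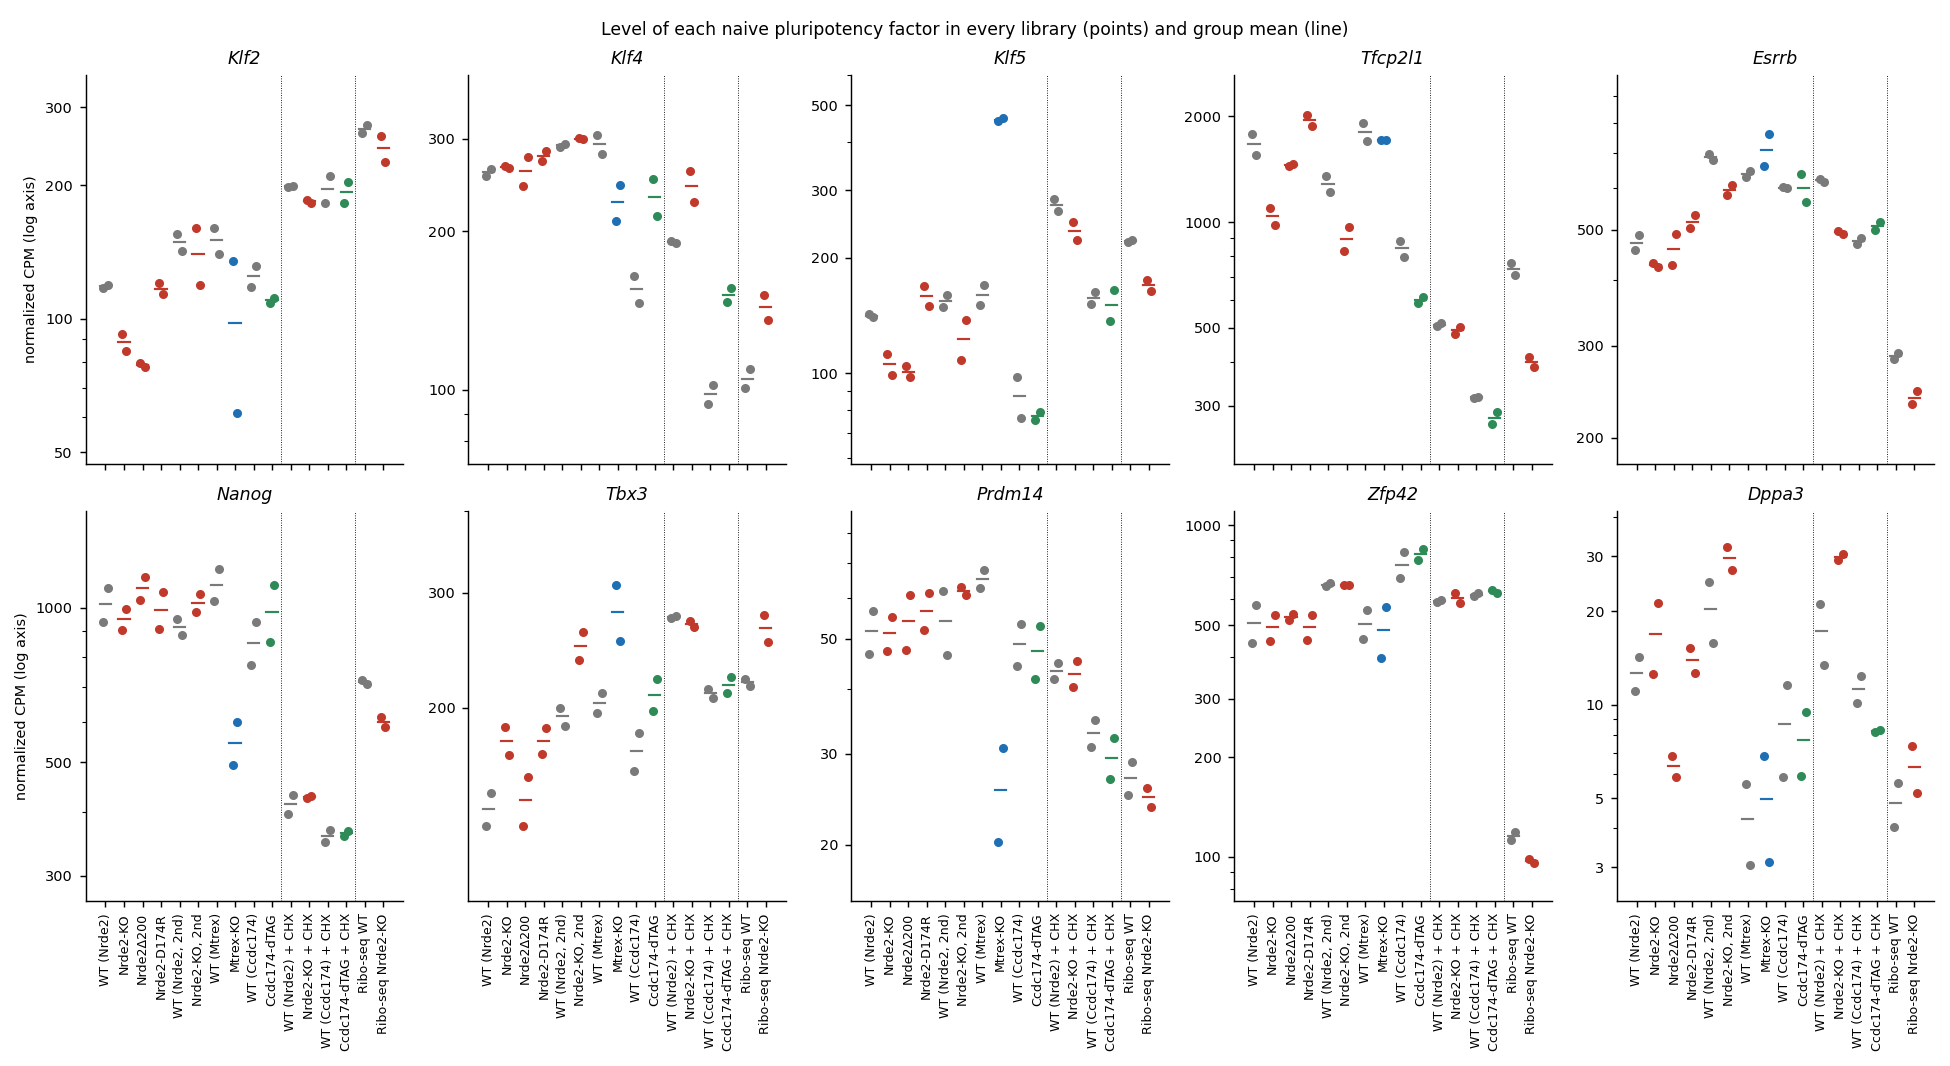
Normalized CPM of each of the 10 factors, 1 panel a gene with its own log axis, by group along the horizontal axis; points are libraries and lines are means of the 2 libraries of a group. *Tfcp2l1* and *Nanog* lie lowest in the CHX-treated RNA-seq groups, and *Klf5* is highest in *Mtrex*-KO at 455 and 463.

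*Tfcp2l1* varied most over the groups. Its group means ran from 278 normalized CPM in *Ccdc174-dTAG* cells with CHX to 1953 in *Nrde2-D174R* cells, a ratio of 7.03. The ratio of the highest to the lowest group mean was 6.94 for *Dppa3* and 5.94 for *Klf5*, 3.09 for *Nanog*, 3.06 for *Klf4*, 2.56 for *Prdm14*, 2.52 for *Klf2* and 2.00 for *Tbx3*. *Zfp42* and *Esrrb* were steadiest, with ratios of 1.70 and 1.66. *Dppa3* rested on few reads, 90 to 1217 in an RNA-seq library and 31 to 42 in a Ribo-seq one.

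*Tfcp2l1*, a CP2-family factor that keeps ES cells in self-renewal downstream of LIF and of GSK3 inhibition, was the member that changed in *Nrde2*-KO cells. Its normalized CPM were 1779 and 1550.2 in the WT libraries and 1096 and 984 in the *Nrde2*-KO libraries. Both knockout libraries lay below both WT libraries. The fall was 1.6-fold (log2 fold change -0.68 ± 0.11 SE, limma adjusted p = 1.4e-04). In bulk RNA, fewer cells that express a gene and less RNA per cell cannot be told apart. In the second experiment, with its own WT libraries, *Tfcp2l1* was at 1358 and 1218 in WT and at 826 and 966 in *Nrde2*-KO. Again the groups did not overlap, and the gene fell 1.44-fold (-0.53 ± 0.11, adjusted p = 1.2e-03). The change of the first experiment passed without any single library, whereas that of the second passed neither without WT replicate 1 (-0.45, adjusted p = 0.021) nor without KO replicate 1 (-0.41, adjusted p = 0.022), nor on the deposited scale (-0.47, adjusted p = 0.014). The effects of the experiments did not differ by the test for any of the 14889 genes tested, with 0 of the 10 members at an unadjusted p below 0.05 by limma and none called by edgeR or DESeq2.

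NRDE2 and CCDC174 have been studied at 5′ splice sites, so those of *Tfcp2l1* are shown, each as 3 exon and 6 intron bases. The gene lies on the plus strand of chromosome 1 at chr1:118627945-118685168 (GRCm38), and capitals mark the bases that match the commonest base at each position of annotated sites, CAGGTAAGT.

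Intron 1: gcGGTAAGa
Intron 2: aAGGTAgag
Intron 3: aAGGTgAGT
Intron 4: ttGGTgAGT
Intron 5: CAGGTAAGc
Intron 6: aAGGTAgGa
Intron 7: gAGGTgAGT
Intron 8: agGGTAcGT
Intron 9: gAtGTAAGT
Intron 10: CAGGTgAGT
Intron 11: CAGGTAgGT
Intron 12: gtGGTgAGT
Intron 13: gAGGTgAGc
Intron 14: aAGGTAAGc

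All 14 sites begin the intron with GT, and they hold between 5 and 8 matches. The site with 5 is that of intron 2, at chr1:118632391-118632399 on the plus strand, which opens an intron of 19907 bases. Of the 52 sites in the members' transcripts, 1 other has 5 matches, that of *Zfp42* intron 3 at chr8:43302869-43302877 on the minus strand:

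*Zfp42* intron 3: aAGGTgtGc

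Among 205850 annotated sites of protein-coding transcripts 18.16% had 5 matches or fewer, and the median was 6 matches against 7.0 for the members. A score that weighs each base by its frequency at annotated sites orders them otherwise: the *Tfcp2l1* intron 2 site lay at percentile 17.79 of annotated sites, below it were *Esrrb* intron 1 (10.06), *Tbx3* intron 6 (16.94) and *Tbx3* intron 2 (17.53), and *Zfp42* intron 3 lay at 40.59. The CPM tables count reads per gene, so use of these sites was not measured here.

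No other member passed the test in *Nrde2*-KO cells, so 1 of 10 changed where 18.2% of the 14889 genes tested did. In the second experiment 1 of 10 changed as well, beside 18.7% of genes. Of the Krüppel-like factors, *Klf2* was at 117 and 119 normalized CPM in WT and at 92.6 and 84.5 in *Nrde2*-KO (-0.42 ± 0.22, adjusted p = 0.16). *Klf5* was at 142 and 140.0 in WT and at 112 and 98.9 in *Nrde2*-KO (-0.42 ± 0.12, adjusted p = 0.013), and its value in the second experiment was -0.34 (adjusted p = 0.040). Each test took its spread from all 20 libraries without CHX, among which *Klf2* stood at 135 and 61.2 in *Mtrex*-KO. For *Klf2* and *Klf5* the first-experiment libraries did not overlap, yet the difference did not pass. It did pass for *Klf5* by DESeq2 (adjusted p = 4.6e-03), and with the compared libraries alone for *Klf5* (adjusted p = 1.1e-03), *Klf2* (adjusted p = 8.3e-04) and *Tbx3* (adjusted p = 4.7e-03). *Klf4* lay between 255 and 266 in all 4 libraries. *Tbx3* had the highest positive values after *Dppa3*: 132 and 148 in WT against 187 and 169 in *Nrde2*-KO (0.35 ± 0.11, adjusted p = 0.027), and 0.36 (adjusted p = 0.024) in the second experiment. *Nanog* was at 937 and 1094 in WT and at 907 and 994 in *Nrde2*-KO, so its libraries overlapped. The libraries of *Prdm14* and *Zfp42* overlapped as well, and *Esrrb*, at 456 and 489 against 432 and 425, did not pass (-0.14, adjusted p = 0.26). *Dppa3* was at 11.1 and 14.2 in WT and at 12.6 and 21.2 in *Nrde2*-KO (0.38 ± 0.37, adjusted p = 0.47). Over the 10 the median log2 fold change was -0.06, beside 0.00 over all genes. Non-overlap of 2 against 2 libraries is given throughout as a description, and its share over all genes was not computed. In *Nrde2-D174R* cells, where no member passed, 5 of 10 members lay above both WT libraries.

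**Figure D2:**
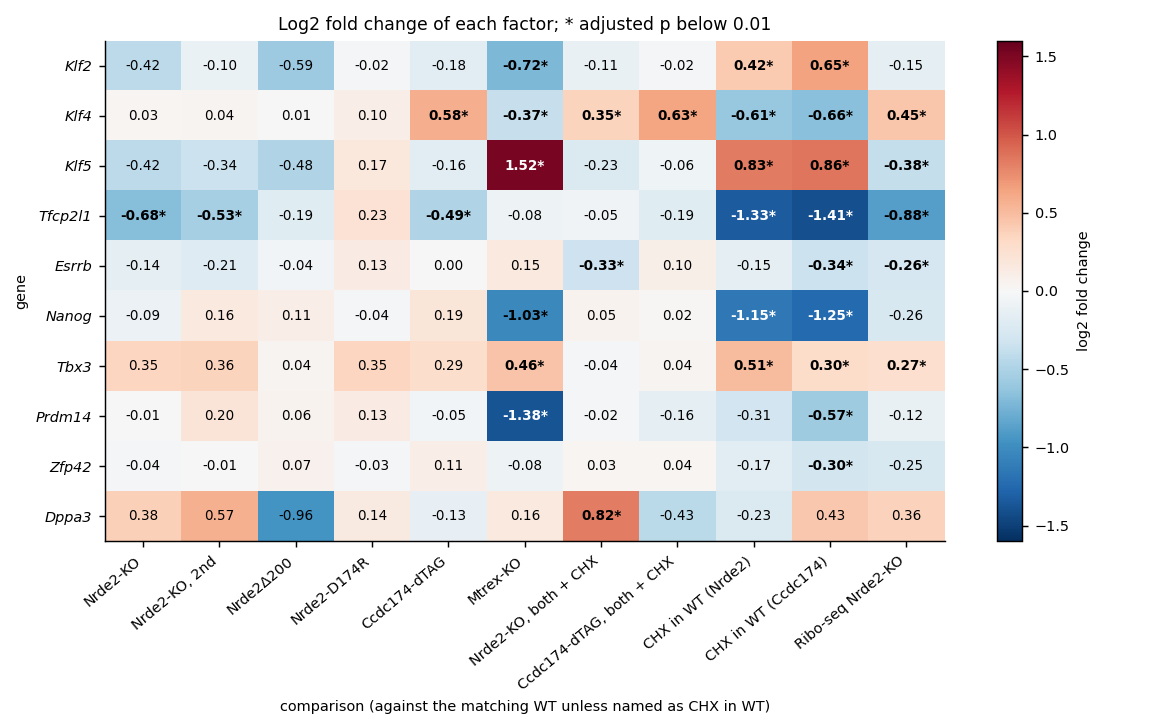
Log2 fold change of each factor (rows) in each comparison (columns) as colour and printed value, with an asterisk where the adjusted p was below 0.01. *Tfcp2l1* is negative and marked in both *Nrde2*-KO experiments without CHX and in Ribo-seq, and most marks fall in the *Mtrex*-KO, Ribo-seq and CHX response columns.

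Markers of the 2-cell-like state, a rare state of ES cell cultures, moved with the knockout: 8 of 9 tested rose in the first experiment and 9 of 9 in the second, none being at 0. Their summed level was 2.65 to 3.52 normalized CPM in WT and 25.9 to 38.8 in *Nrde2*-KO, and 7.43 to 7.74 against 110.9 to 117 in the second experiment. The summed level of the 10 ES cell markers was 3419 to 3639 in WT and 2506 to 2795 in *Nrde2*-KO of the first experiment, where 4 of the 10 fell. The part of either in the *Tfcp2l1* values was not tested.

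No member passed the test in either partial allele of *Nrde2*. The 3 *Nrde2* comparisons of the first experiment shared the WT libraries, so they are given side by side. In *Nrde2*Δ*200* cells 0 of 10 members passed by limma, beside 7.49% of genes, with 3 at an unadjusted p below 0.05, 0 by edgeR and 1 (*Klf5*) by DESeq2. *Tfcp2l1* was at 1442 and 1467 normalized CPM there, below both WT libraries (-0.19, adjusted p = 0.24). Without the N-terminal residues, *Klf5* was at 104 and 97.7 (-0.48, adjusted p = 0.011) and *Klf2* at 79.6 and 78.1 (-0.59, adjusted p = 0.082), both under every WT library. *Dppa3* was at 6.84 and 5.86 (-0.96, adjusted p = 0.089), also under WT. *Nrde2-D174R* cells likewise had 0 of 10 members that passed, beside 0.396% of genes, with 2 at an unadjusted p below 0.05 and 0 by edgeR or DESeq2. Their *Tfcp2l1* stood at 2024 and 1882, above both WT libraries (0.23).

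The *Nrde2* groups were also set against each other. Of these only *Nrde2*-KO cells had received 4-hydroxytamoxifen, and the groups were different edited lines. Line, treatment and allele cannot be told apart in these contrasts. *Tfcp2l1* was higher in *Nrde2*Δ*200* than in *Nrde2*-KO cells by 0.49 ± 0.11 (adjusted p = 5.5e-03), 1 of 10 members beside 5.7% of genes. That difference failed without any one of the 4 libraries (0.41 to 0.56, adjusted p 0.019 to 0.081). *Klf5* was at 169 and 149.9 in *Nrde2-D174R* and at 104 and 97.7 in *Nrde2*Δ*200*, with no overlap. The difference was 0.66 ± 0.12 (adjusted p = 2.2e-03), 1 of 10 members beside 4.24% of genes, and it did not pass without *Nrde2*Δ*200* replicate 1, *Nrde2*Δ*200* replicate 2 or *Nrde2-D174R* replicate 1 (0.57 to 0.70, adjusted p 0.016 to 0.052). The 2-cell-like markers had a sum of 16.3 to 21.1 in *Nrde2*Δ*200*, beside 2.20 to 3.78 in *Nrde2-D174R* and 25.9 to 38.8 in *Nrde2*-KO. Of 9 tested, 2 were lower in *Nrde2-D174R* than in *Nrde2*Δ*200*, as were 2 of 7 primitive endoderm markers, and 1 of 9 was lower in *Nrde2*Δ*200* than in *Nrde2*-KO. The part of these markers in either difference was not tested.

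**Figure D3:**
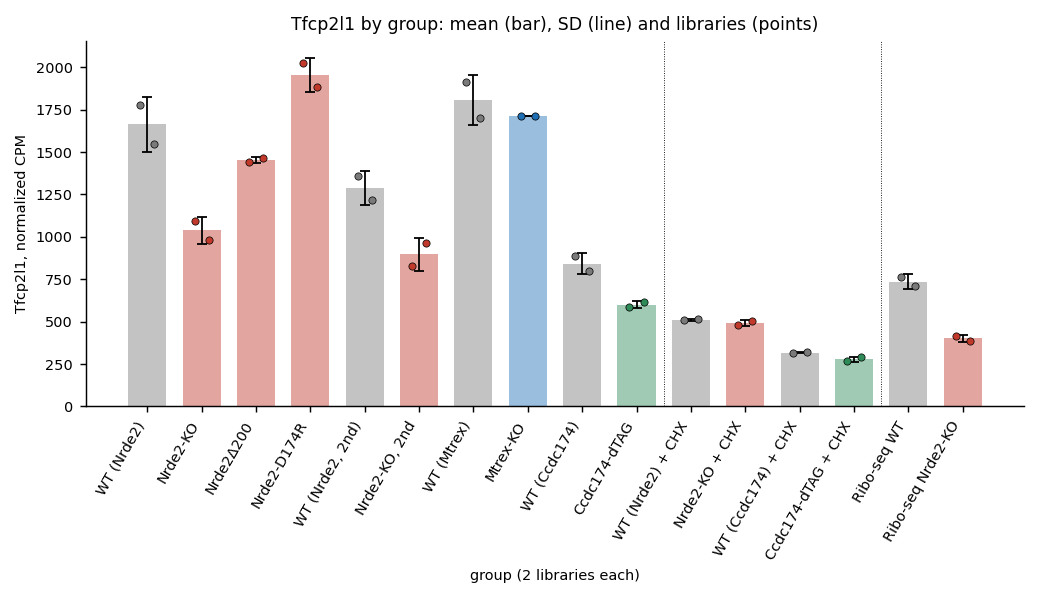
Normalized CPM of *Tfcp2l1* by group on a linear axis from 0; bars are means of 2 libraries, error bars are SD and points are libraries. The *Nrde2*-KO libraries lie at 984 and 1096 against 1550.2 and 1779 in WT, and the CHX-treated RNA-seq libraries lie at or below 515.

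Depletion of CCDC174 changed *Klf4* and *Tfcp2l1*, 2 of 10 members beside 5.59% of genes. *Klf4*, which LIF induces through STAT3, was at 164 and 146 in WT and at 251 and 214 in *Ccdc174-dTAG* cells. The groups stood apart, and the rise was 1.49-fold (0.58 ± 0.10, adjusted p = 5.9e-04). It did not pass without WT replicate 2 (0.50, adjusted p = 0.016) or dTAG replicate 1 (0.46, adjusted p = 0.012). *Tfcp2l1* was at 887 and 798 in WT and at 587 and 614 after depletion, again without overlap. The fall was 1.40-fold (-0.49 ± 0.11, adjusted p = 5.4e-03) and was lost without any one of the 4 libraries (-0.41 to -0.56, adjusted p 0.014 to 0.089). *Tbx3* was at 159.9 and 183 in WT and 197 and 221 after depletion, and did not pass (0.29, adjusted p = 0.11). The other 7 members did not pass.

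Whether the effect of CCDC174 depletion differed from that of *Nrde2* loss was tested for each member. By limma 0 of 10 passed, beside 1.65% of genes, with 1 at an unadjusted p below 0.05, 0 by edgeR and 1 by DESeq2. The nearest was *Klf4*, whose effect was higher by 0.55 ± 0.14 (adjusted p = 0.025). The sum of the 2-cell-like markers was 3.36 to 6.06 in the untreated fusion line and 3.51 to 9.05 after dTAG-13, and 0 of 9 passed.

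Loss of MTREX moved more of the network, in both directions. By the test 6 of 10 members changed, 2 higher and 4 lower, beside 55.9% of all genes (28.5% higher and 27.4% lower), and 3 of 10 by over 2-fold beside 26.7%, so neither share stood far from that of genes at large. *Klf5*, a factor of both epiblast and trophectoderm, rose most. Its normalized CPM were 151 and 169.9 in *Mtrex* WT and 455 and 463 in *Mtrex*-KO, 2.86-fold higher (1.52 ± 0.12, adjusted p = 7.8e-09). Both knockout libraries lay far above both WT libraries and above every other RNA-seq library of the study. *Tbx3* was at 196 and 210.5 in WT and at 308 and 253 in *Mtrex*-KO, a 1.37-fold rise (0.46 ± 0.11, adjusted p = 1.8e-03). That of *Tbx3* did not pass without WT replicate 1 (0.41, adjusted p = 0.021) or KO replicate 1 (0.31, adjusted p = 0.034), and on the deposited scale it was 0.06 (adjusted p = 0.68).

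The members that fell in *Mtrex*-KO cells were *Prdm14*, *Nanog*, *Klf2* and *Klf4*. *Prdm14* was at 62.7 and 68.0 in WT and at 20.3 and 30.8 in *Mtrex*-KO, 2.60-fold lower (-1.38 ± 0.19, adjusted p = 4.4e-06). *Nanog* was at 1030.0 and 1188 in WT and at 493 and 599 in *Mtrex*-KO, 2.04-fold lower (-1.03 ± 0.14, adjusted p = 5.0e-06). In both genes the groups were wide apart, and with *Klf5* they passed in every setting tried. *Klf4* was at 305 and 281 in WT and at 209 and 245 in *Mtrex*-KO (-0.37 ± 0.10, 1.29-fold lower, adjusted p = 2.6e-03), and it failed without WT replicate 1 (-0.31, adjusted p = 0.034) or KO replicate 1 (-0.26, adjusted p = 0.040). *Klf2* was at 160.3 and 140.2 in WT and at 135 and 61.2 in *Mtrex*-KO. Its knockout libraries thus lay further apart than the WT mean lay from the nearer one. With the compared libraries alone the change of *Klf2* did not pass. Its fall of 1.65-fold (-0.72 ± 0.22, adjusted p = 8.6e-03) rested on KO replicate 2, without which it was -0.15 (adjusted p = 0.32), and it also failed without WT replicate 1 (-0.62, adjusted p = 0.063), without WT replicate 2 (-0.82, adjusted p = 0.019), by edgeR and by DESeq2.

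*Tfcp2l1*, at 1913 and 1702 in *Mtrex* WT and at 1711 in each knockout library, did not pass (-0.08, adjusted p = 0.54). On the deposited scale, where the median gene lay at -0.38, it did pass as lower (-0.47, adjusted p = 3.9e-03). *Esrrb* (0.15), *Zfp42* (-0.08) and *Dppa3* (0.16) did not pass either. The knockout libraries differed from each other in their 2-cell-like markers, whose sum was 4.99 to 15.5 in WT and 109.9 and 333 in the *Mtrex*-KO libraries, with 9 of 9 higher and none at 0. The sum of 10 trophectoderm markers was 151 to 190 in WT and 545 to 577 in *Mtrex*-KO, where 5 of 8 tested rose and 1 fell. The part of these markers in the members' values was not tested.

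The effect of *Mtrex* loss minus that of *Nrde2* loss, each against its own WT, passed for 4 of 10 members beside 31.5% of genes. *Klf5* differed by 1.94 ± 0.17 (adjusted p = 1.9e-07), rising in *Mtrex*-KO and having a negative value in *Nrde2*-KO. *Prdm14* differed by -1.36 ± 0.26 (adjusted p = 4.3e-04) and *Nanog* by -0.93 ± 0.20 (adjusted p = 9.8e-04), both lower in *Mtrex*-KO and near WT in *Nrde2*-KO. *Tfcp2l1* went the other way, by 0.60 ± 0.15 (adjusted p = 3.4e-03). That last difference was 0.14 (adjusted p = 0.54) on the deposited scale, and it failed without *Nrde2* WT replicate 1, *Nrde2*-KO replicate 2 or *Mtrex* WT replicate 2 (0.50 to 0.52, adjusted p 0.023 to 0.025). Days of tamoxifen differed between the lines, and line, time and gene cannot be told apart.

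**Figure D4:**
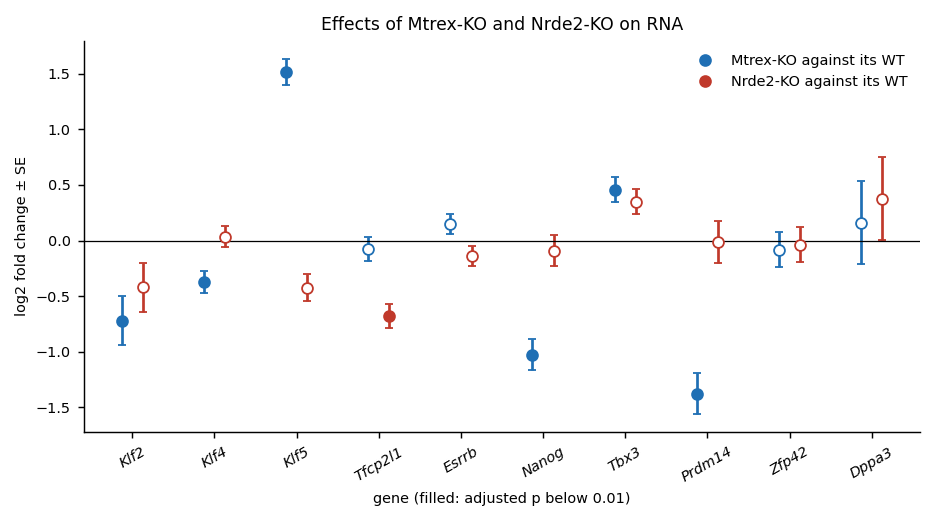
Log2 fold change with SE of each factor (horizontal axis) in *Nrde2*-KO and in *Mtrex*-KO, each against its own WT; filled points had an adjusted p below 0.01. *Klf5* lies at 1.52 in *Mtrex*-KO and -0.42 in *Nrde2*-KO and *Prdm14* at -1.38 and -0.01, while *Tfcp2l1* lies at -0.08 and -0.68.

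Inhibition of translation by CHX also moved members in control cells. In *Nrde2* WT cells 6 of 10 changed beside 47.5% of genes, a share not far from that of genes at large. In the *Ccdc174* fusion line 9 of 10 changed beside 49.5%. *Tfcp2l1* fell from 1358 and 1218 to 507 and 515 in *Nrde2* WT, 2.52-fold (-1.33 ± 0.08, adjusted p = 9.0e-09), and from 887 and 798 to 316 and 319 in the fusion line, 2.65-fold (adjusted p = 4.3e-09). *Nanog* fell from 949.6 and 885 to 396 and 432, 2.22-fold (-1.15 ± 0.11, adjusted p = 5.1e-07), and from 772 and 938 to 349 and 369, 2.37-fold (adjusted p = 1.9e-07). These were the members past 2-fold, 2 of 10 beside 14.1% and 15.3% of genes. Genes that fell past 2-fold were 2.91% in *Nrde2* WT and 2.62% in the fusion line, and most genes past 2-fold rose. In neither *Tfcp2l1* nor *Nanog* did libraries with and without CHX overlap.

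The Krüppel-like factors split under CHX. *Klf5* rose from 149 and 160.3 to 286 and 265 in *Nrde2* WT (1.78-fold, log2 fold change 0.83) and from 98.0 and 76.3 to 151 and 163 in the fusion line (0.86). *Klf2* was at 155 and 142 without and at 199 in each library with CHX (0.42), and at 118 and 131 against 182 and 209.8 in the fusion line (0.65). *Klf4* moved the other way, from 289 and 293 to 192 and 189.9 (-0.61) and from 164 and 146 to 93.9 and 102 (-0.66). All of these passed, although *Klf2* in *Nrde2* WT did not without WT replicate 2 (0.36, adjusted p = 0.042) or without either CHX-treated library (adjusted p = 0.023 each). *Tbx3* rose in both lines, by 0.51 and 0.30. In the fusion line *Prdm14* (-0.57), *Esrrb* (-0.34) and *Zfp42* (-0.30) fell as well. Of these smaller changes in the fusion line, that of *Tbx3* failed without WT replicate 1 or either CHX-treated library (adjusted p up to 0.068), that of *Prdm14* without WT replicate 2 or CHX-treated replicate 1 (adjusted p up to 0.045), and that of *Zfp42* without WT replicate 2 or either CHX-treated library (adjusted p up to 0.079). On the deposited scale *Zfp42* was at -0.06 (adjusted p = 0.51), *Esrrb* at -0.11 (adjusted p = 0.18) and *Prdm14* at -0.34 (adjusted p = 0.066), none of which passed. *Dppa3* did not pass in either line (0.43, adjusted p = 0.22, in the fusion line).

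The response to CHX was also measured in cells that lacked NRDE2 or CCDC174. In *Nrde2*-KO cells 7 of 10 members changed beside 48.9% of genes, with *Tfcp2l1* at -0.86, *Nanog* at -1.26 and *Klf5* at 0.94. The count was 3 without KO replicate 2 or CHX-treated replicate 2 and 4 without CHX-treated replicate 1, while these 3 genes passed in every setting tried. In *Ccdc174-dTAG* cells 8 of 10 changed beside 50.4%, with *Tfcp2l1* at -1.11, *Nanog* at -1.42 and *Klf5* at 0.96. Whether CHX altered the effect of either loss was tested as a difference of effects. For *Nrde2* 0 of 10 members passed by limma, beside 0.515% of genes, with 3 at an unadjusted p below 0.05 and 0 by edgeR or DESeq2. *Tfcp2l1* had the smallest p (0.47 ± 0.12, adjusted p = 0.054), followed by *Tbx3* (-0.39, adjusted p = 0.086). For *Ccdc174* 0 of 10 passed beside 0.251% of genes, with 2 at an unadjusted p below 0.05 and 0 by edgeR or DESeq2, and *Tfcp2l1* was at 0.29 (adjusted p = 0.40).

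With CHX present in both arms, *Nrde2* loss changed 3 of 10 members beside 27.8% of genes, and *Tfcp2l1* was not among them. *Tfcp2l1* was at 507 and 515 in WT and at 481 and 503 in *Nrde2*-KO (-0.05 ± 0.05, adjusted p = 0.42). *Esrrb*, the nuclear receptor on which the network leans under GSK3 inhibition, was at 624 and 618 in WT and at 497 and 491 in *Nrde2*-KO, 1.26-fold lower (-0.33 ± 0.05, adjusted p = 2.4e-04), with no overlap. *Klf4* was at 192 and 189.9 in WT and at 261 and 227 in *Nrde2*-KO, 1.28-fold higher (0.35 ± 0.07, adjusted p = 2.0e-03). *Dppa3* was at 21.1 and 13.4 in WT and at 29.1 and 30.5 in *Nrde2*-KO, 1.76-fold higher (0.82 ± 0.17, adjusted p = 3.2e-03). The fall of *Esrrb* passed without any single library. The rise of *Klf4* failed without WT replicate 2 (0.34, adjusted p = 0.012) or KO replicate 1 (0.25, adjusted p = 0.026), and that of *Dppa3* without WT replicate 2 (0.49, adjusted p = 0.012), KO replicate 1 (0.85, adjusted p = 0.022) or KO replicate 2 (0.78, adjusted p = 0.028). The summed level of the 2-cell-like markers was 5.63 to 5.78 in WT and 59.9 to 66.6 in *Nrde2*-KO, with 7 of 7 tested higher and none at 0, and its part in the *Dppa3* and *Klf4* values was not tested.

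Under CHX, CCDC174 depletion changed *Klf4* alone, 1 of 10 members beside 9.05% of genes. *Klf4* was at 93.9 and 102 in the fusion line and at 147 and 156 after dTAG-13, 1.55-fold higher (0.63 ± 0.07, adjusted p = 1.9e-04), in every setting tried. *Tfcp2l1* was at 316 and 319 against 266 and 289 and did not pass (-0.19 ± 0.05, adjusted p = 0.023). *Klf4* had thus passed after CCDC174 depletion with and without CHX, and after *Nrde2* loss with CHX.

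On ribosomes, footprints of *Tfcp2l1* fell in *Nrde2*-KO cells as its RNA had. Footprint levels were 766 and 707 normalized CPM in WT and 414 and 388 in *Nrde2*-KO, 1.84-fold lower (-0.88 ± 0.08, adjusted p = 4.3e-08). The groups stood apart, and the fall passed in every setting, from -0.72 to -0.93. In all, 5 of 10 members changed in Ribo-seq beside 25.2% of the 13857 genes tested, and none by over 2-fold beside 6.42%. *Klf4* was at 101 and 109 in WT and at 151 and 136 in *Nrde2*-KO, 1.36-fold higher (0.45 ± 0.08, adjusted p = 2.6e-04). *Klf5* was at 219 and 223 in WT and at 175 and 164 in *Nrde2*-KO, 1.31-fold lower (-0.38 ± 0.08, adjusted p = 4.5e-04), although on the deposited scale its value was -0.23 (adjusted p = 0.24). In both genes the pairs of libraries were apart.

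The smaller changes in footprints were a rise of *Tbx3* and a fall of *Esrrb*. *Tbx3* was at 221 and 216 in WT and at 278 and 252 in *Nrde2*-KO (0.27 ± 0.08, 1.21-fold, adjusted p = 7.9e-03), and *Esrrb* at 282 and 289.8 against 231 and 246 (-0.26 ± 0.07, 1.2-fold, adjusted p = 8.6e-03). *Tbx3* failed without WT replicate 2 (0.26, adjusted p = 0.017) or KO replicate 1 (0.20, adjusted p = 0.12), on the deposited scale (0.43, adjusted p = 0.019) and by DESeq2 (adjusted p = 0.011). *Esrrb* failed without WT replicate 2 (-0.24, adjusted p = 0.024), KO replicate 1 (-0.22, adjusted p = 0.094) or KO replicate 2 (-0.31, adjusted p = 0.014), on the deposited scale (-0.11, adjusted p = 0.62), by edgeR (adjusted p = 0.014) and by DESeq2 (adjusted p = 0.017). Just short of the threshold were *Nanog*, at 722 and 711 in WT against 613 and 585 (-0.26, adjusted p = 0.010), which passed by DESeq2, and *Zfp42*, at 113 and 119 against 98.4 and 96.0 (-0.25, adjusted p = 0.018). Both had every knockout library below every WT library. *Klf2*, at 262 and 273 against 258 and 226, did not overlap either but did not pass. The 2-cell-like markers had summed footprints of 0.13 to 0.67 in WT and 1.43 to 1.44 in *Nrde2*-KO, too few for any to be tested. Of the 10 ES cell markers 5 fell and 1 rose in footprints, and their sum was 1942 to 2015 in WT and 1664 to 1686 in *Nrde2*-KO. Of 7 primitive endoderm markers tested 3 rose and none fell. Yet the sum of the 10 on that list was lower, at 418 to 439 in WT and 390 to 413 in *Nrde2*-KO. Of 3 feeder fibroblast markers tested 2 rose. The sum of the 8 on the feeder list was 13.7 to 15.3 in WT and 33.2 to 35.2 in *Nrde2*-KO, with 1 at 0 in each group. The part of these markers in the members' footprints was not tested.

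A model over both assays tested whether the footprint change differed from the RNA change of the first experiment. By limma 0 of 10 members passed beside 6.94% of 12788 genes, with 2 at an unadjusted p below 0.05, 0 by edgeR and 1 (*Klf4*) by DESeq2. *Klf4* was nearest, its footprints having a value higher than its RNA by 0.41 ± 0.11 (adjusted p = 0.017). The tests did not separate the fall of *Tfcp2l1* footprints from that of its RNA.

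**Figure D5:**
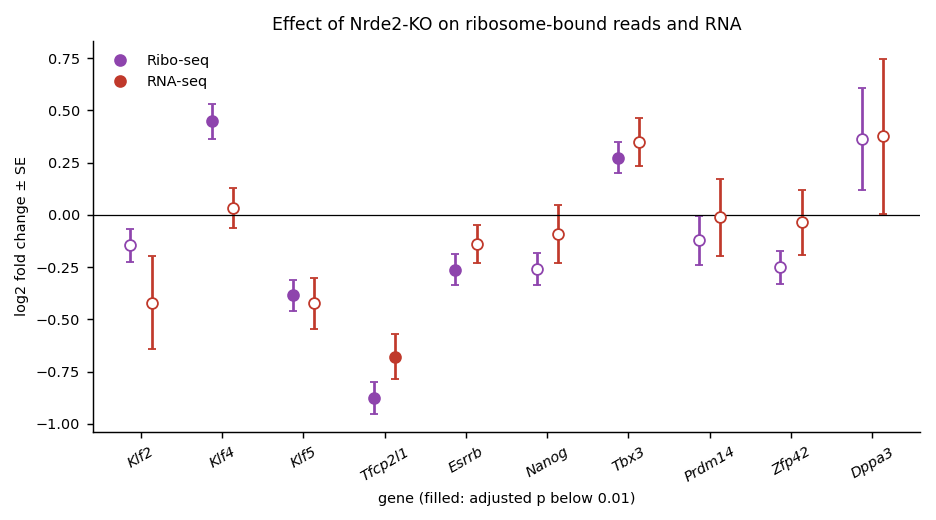
Log2 fold change with SE of each factor (horizontal axis) in *Nrde2*-KO cells by RNA-seq of the first experiment and by Ribo-seq; filled points had an adjusted p below 0.01. *Tfcp2l1* is lowest in both, at -0.68 and -0.88, and *Klf4* lies at 0.03 in RNA-seq and 0.45 in Ribo-seq.

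Footprints per RNA differed between members in WT cells. The ratio of Ribo-seq to RNA-seq normalized CPM was 2.26 for *Klf2*, 1.57 for *Klf5*, 1.56 for *Tbx3*, 0.705 for *Nanog*, 0.606 for *Esrrb*, 0.520 for *Prdm14*, 0.442 for *Tfcp2l1*, 0.406 for *Klf4*, 0.382 for *Dppa3* and 0.228 for *Zfp42*. The RNA-seq values were those of the first *Nrde2* WT group, and the labels tie Ribo-seq to neither *Nrde2* experiment. In the first and second WT groups mean RNA was 140 and 194 for *Tbx3*, and 1664 and 1288 for *Tfcp2l1*. The ratios thus depend on the group chosen, up for some members and down for others. The ratio also carries the untranslated length of each mRNA, which footprints hardly cover, so it is a description and not a rate. Per kb of exon, *Nanog* again had the most footprints, 319.5 normalized CPM, then *Klf2* at 145, *Tfcp2l1* at 78.0, *Zfp42* at 61.5, *Esrrb* at 47.3, *Klf5* at 42.5, *Klf4* at 34.4, *Tbx3* at 33.0, *Prdm14* at 10.5 and *Dppa3* at 5.41. Only *Klf4* and *Tbx3* overlapped with their neighbour in that order. *Klf2* thus stood at rank 2 by footprints and at rank 6 by RNA, and *Zfp42* at rank 4 and rank 2.

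The genes around the network were read from lists of the signals that feed it and of the states next to it. The lists were written with earlier results of these data known, so their counts are descriptions. In *Nrde2*-KO cells of the first experiment, 6 of 12 genes of the LIF-STAT3 input fell and none rose, where 10.6% of all genes fell. Among them was *Socs3*, the feedback inhibitor of that input (-1.14). Of 17 surface, signalling and other genes of the naive state 9 fell and 1 rose, with the Nodal antagonists *Lefty1* (-2.51) and *Lefty2* (-1.83) and the AKT coactivator *Tcl1* (-1.52) lowest. Of 10 genes of the WNT-GSK3-TCF7L1 input none passed, of 15 of the MEK-ERK input 1 fell, and of 15 formative and primed genes 2 rose. The medians were -0.40 for the LIF-STAT3 list, -0.47 for the naive-state genes and 0.20 for the formative and primed genes, beside 0.00 over all genes. In the second experiment 4 of 12 LIF-STAT3 genes fell and none rose (median -0.43), and 6 of 17 naive-state genes fell and none rose (median -0.13). There 1 of 15 formative and primed genes rose and 2 fell (median -0.16), so the sign of that list's median differed between the experiments. Of the general factors, *Pou5f1* was at -0.38 (adjusted p = 0.043) and *Sox2* at -0.19 (adjusted p = 0.30), and neither passed. After CCDC174 depletion 2 of 12 LIF-STAT3 genes and 2 of 17 naive-state genes fell, and none rose. With CHX in both arms, 7 of 12 LIF-STAT3 genes fell and none rose after *Nrde2* loss. The same counts held with CHX after CCDC174 depletion. In these CHX comparisons *Tfcp2l1* did not pass and *Klf4* was higher. The part of the listed inputs in the members' values was not tested.

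In *Mtrex*-KO cells 8 of 15 MEK-ERK genes rose and 3 fell, and 4 rose and 2 fell over 2-fold. Among these were *Spry4* at 2.58 and *Dusp6* at 1.99, both inhibitors that ERK signalling induces. *Fgf4*, the ligand of the pathway in ES cells, was at -1.36. The part of this list in the members' values was not tested. Of the naive-state genes 6 rose and 8 fell, of 12 LIF-STAT3 genes 1 rose and 3 fell with *Pim1* at -2.21, and of 15 formative and primed genes 5 rose and none fell. Of 11 core pluripotency factors 4 rose, 2 of them over 2-fold, and 3 fell, none over 2-fold (median 0.36). *Pou5f1* was among those that fell, by 0.57 on the log2 scale (adjusted p = 1.3e-03). CHX in *Nrde2* WT cells raised 6 of 12 LIF-STAT3 genes and lowered 2, with *Socs3* at 1.86, while it raised 7 of 17 formative and primed genes and lowered 2, with *Otx2* at 1.92. In Ribo-seq 4 of 12 LIF-STAT3 genes and 7 of 17 naive-state genes fell in *Nrde2*-KO cells, and 0 and 4 rose. Of 11 core pluripotency factors 7 fell in Ribo-seq and none rose. Some genes stand on more than 1 list, so the counts are not independent. *Dusp6* is on the MEK-ERK and the formative and primed lists, and *Fgf4* on the MEK-ERK and naive-state lists. Of all genes, 11.3% fell in the second *Nrde2*-KO experiment and 4.45% after CCDC174 depletion. With CHX in both arms, 15.4% fell after *Nrde2* loss and 5.87% after CCDC174 depletion. In Ribo-seq 14.2% fell and 11% rose, and CHX in *Nrde2* WT cells raised 25.1% and lowered 22.4%. In *Nrde2*-KO cells 7.64% rose in the first experiment and 7.44% in the second. The lists are read by their counts beside these shares and those given above.

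Across the 14 RNA-seq group means of log2 normalized CPM, several members ran together. *Nanog* and *Prdm14* had r = 0.80, *Tfcp2l1* and *Nanog* r = 0.77, and *Klf4* and *Tfcp2l1* r = 0.73. *Klf2* ran opposite to *Tfcp2l1* (r = -0.68) and to *Nanog* (r = -0.67). The group means share cell lines and the CHX treatment, so these values are descriptions over 14 points. Among 11065 genes whose group means spanned at least 1 on the log2 scale, the nearest to *Tfcp2l1* were *Baz2a* and *Plxnb2* (r = 0.97 each) and *Klf13* (r = 0.96). The nearest to *Nanog* were *Fgf4* (r = 0.99), *Tuba1c* (r = 0.98) and *Cenpc1* (r = 0.97), and to *Klf5* *Edn1* and *5930412G12Rik* (r = 0.96 each) and *Zhx2* (r = 0.95). The highest value for *Prdm14* was with *Net1* (r = 0.96), for *Zfp42* with *Utp18* (r = 0.95), for *Klf4* with *Extl3* (r = 0.94), for *Klf2* with *Tma16* (r = 0.93), for *Tbx3* with *Rmdn2* (r = 0.91), for *Dppa3* with *Nr1d2* (r = 0.90) and for *Esrrb* with *Bex3* (r = 0.88).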

How the data were processed

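RNA-seq libraries were stranded, made from rRNA-depleted total RNA and read for 50 nt from one end, and Ribo-seq adapters were trimmed and duplicates collapsed. The authors aligned reads with STAR 2.7.3a to mm10 and counted unique reads per GENCODE M23 gene with featureCounts. The deposited values are CPM over 55335 genes. All of them came out as whole reads (largest deviation 0.000314 of a read), and genes held 72.1 to 92.1% of the RNA-seq and 61.4 to 66.8% of the Ribo-seq total. The members and lists were chosen with earlier results of these data known.

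CPM were divided by median-of-ratios factors, 0.25 was added, and genes whose mean reached 0.5 CPM were fitted on the log2 scale with limma 3.58.1 (trend, empirical Bayes). Changed means a Benjamini-Hochberg adjusted p below 0.01, over all genes tested. Libraries without CHX (20), with CHX (8), of both CHX experiments (16), of Ribo-seq (4) and of both assays (8) were fitted separately. The fits were also run on simulated counts with changes of 2-fold or more and the same dispersion for all genes. Those runs do not cover the smaller changes reported here. Alternatives were another added value or filter, the deposited scale, a replicate block, edgeR 4.0.16 and DESeq2 1.42.0 on recovered reads, the compared libraries alone, and each library left out. Genes named outside the set were core factors, list members past 2-fold and the 3 nearest by correlation. Binding libraries (BCLIP-seq) were not used here. Gene names were taken from GENCODE M21.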

Additional observations from a re-analysis of the deposited data

Results flagged for a closer look

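Of the differences between effects, 6 passed the test. The effect of *Mtrex* loss minus that of *Nrde2* loss was 1.94 for *Klf5*, 0.60 for *Tfcp2l1*, -0.93 for *Nanog* and -1.36 for *Prdm14*. *Tfcp2l1* was higher in *Nrde2*Δ*200* than in *Nrde2*-KO cells by 0.49, and *Klf5* was higher in *Nrde2-D174R* than in *Nrde2*Δ*200* cells by 0.66. The cause of these differences was not tested.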

How the results depend on the processing

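Counts of members that changed depended on the setting in several comparisons. With 2 libraries a group and small changes, calls near the threshold are not firm, and depth limits *Dppa3* most. For *Nrde2*-KO (1 member), DESeq2 gave 2 and the compared libraries alone 4. The second experiment (1) gave 0 on the deposited scale and 0 to 1 with a library left out. *Nrde2*Δ*200* (0) gave 1 by DESeq2 and 3 with the compared libraries alone. *Mtrex*-KO (6) gave 3 with the compared libraries alone and 3 to 5 with a library left out. CCDC174 depletion (2) gave 1 with no filter, on the deposited scale and with the compared libraries alone, and 0 to 1 with a library left out. The CCDC174 minus *Nrde2* effect (0) gave 1 by DESeq2. *Nrde2*Δ*200* minus *Nrde2*-KO (1) gave 0 with no filter, on the deposited scale and with any library left out, and 3 with the compared libraries alone. *Nrde2-D174R* minus *Nrde2*Δ*200* (1) gave 0 with no filter and on the deposited scale, 2 by DESeq2, 4 with the compared libraries alone and 0 to 1 with a library left out. *Nrde2*-KO with CHX (3) gave 1 with no filter and 1 to 3 with a library left out. CCDC174 depletion with CHX (1) gave 2 by DESeq2. The CHX response of *Nrde2*-KO cells (7) gave 4 with no filter and with the compared libraries alone, and 3 to 5 with a library left out. Ribo-seq (5) gave 1 with no filter, 2 on the deposited scale and 3 to 5 with a library left out, and its difference from RNA-seq (0) gave 1 by DESeq2. The cause of these shifts was not tested. Every other count stayed within 1.5 times, and no member's value that passed in either setting reversed. The responses of *Nrde2*-KO and *Ccdc174-dTAG* cells to CHX and the differences between comparisons, other than that between Ribo-seq and RNA-seq, were added after seeing the data. The compared libraries alone were not run for Ribo-seq and its difference from RNA-seq, whose fits hold no others.

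With the replicate number as a block, the count was 3 for *Nrde2*-KO in each experiment, for *Nrde2*Δ*200*, for CCDC174 depletion with CHX and for *Nrde2-D174R* minus *Nrde2*Δ*200*, 2 for *Nrde2*Δ*200* minus *Nrde2*-KO, and 1 for the CCDC174 minus *Nrde2* effect, and it moved no other count by over 1.5 times. The members gained in each *Nrde2*-KO experiment were *Klf5* and *Tbx3*. Deviations of same-numbered libraries correlated at -0.03 to 0.42 between compared groups, over 2 numbers only, so the samples share a number and are not shown to be paired.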
